A study of Mus musculus with 32 samples.

Results

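The 9 genes described here encode the enzymes that lengthen fatty acyl chains and insert double bonds into them in mouse liver: the elongases Elovl1, Elovl2, Elovl3, Elovl5 and Elovl6, the stearoyl-CoA desaturases Scd1 and Scd2, and the polyunsaturated fatty acid desaturases Fads1 and Fads2. They were taken by name as families of enzymes, with earlier results of these data known, and are 9 of the 35523 genes for which transcript counts were summed in 32 liver libraries. RNA was sequenced from 8 groups of 4 mice, formed by genotype, sex and diet. Whole-body Nudt7-/- (KO) mice lack part of Nudt7, the gene of a peroxisomal CoA-degrading hydrolase, in every tissue. The line goes back to a single mosaic founder made by CRISPR/Cas9 editing of FVB zygotes and was backcrossed to C57BL/6J, and the wild-type (WT) controls were littermates. From 6 weeks of age until harvest between 17 and 20 weeks, mice ate either a low-fat control diet (CD, 10% of energy from fat, no cholesterol) or a Western diet (WD, 41% of energy from fat and 0.2% cholesterol). The study harvested some mice fed and others after a fast, and the labels do not say which of these states the sequenced livers were in. The samples were whole liver, so fewer cells of a type and less RNA per cell cannot be told apart in any value given here.

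The libraries held between 10140048 and 15825078 counts, with a median of 13000302. All 8 hepatocyte markers were detected in every group, and their summed level lay between 57072 and 108507 CPM, a gene's count relative to the total of its library after TMM scaling. Nudt7, the targeted gene, did not overlap between genotypes within any sex and diet and was lower in KO livers, with group means from 32.6 to 141 CPM in KO and from 131 to 511 CPM in WT livers. In 4 libraries of females the summed level of 14 pancreatic acinar markers lay between 503 and 6732 CPM, against at most 133 CPM in each of the others. These were replicates 2 and 4 of WT females on the CD, replicate 3 of KO females on the CD and replicate 4 of WT females on the WD. Counts of genes are therefore also given without them where that changes a call.

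Chain elongation takes place at the endoplasmic reticulum in a cycle that adds a unit of carbon atoms from malonyl-CoA, and the elongase carries out the condensation that sets which chains can enter. ELOVL6 acts on palmitate and similar chains made by fatty acid synthase, ELOVL1 and ELOVL3 on longer saturated and monounsaturated chains, and ELOVL5 and ELOVL2 on polyunsaturated chains. SCD enzymes turn stearate and palmitate into oleate and palmitoleate. FADS2 and FADS1 act at successive steps on the way from linoleate and linolenate to arachidonate and the long omega-3 fatty acids. In liver, several of these genes are known targets of SREBP-1c, the transcription factor that insulin and the liver X receptors induce to drive lipid synthesis, and polyunsaturated fatty acids in the diet are known to lower its activity.

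Sequence upstream of a start site is shown for the 3 genes whose transcripts were lower on the WD in WT males by the test described further on, so that the reader can see what lies there. The 250 bases before the start site were taken from RefSeq (GRCm38.p6), where 5 of the 9 genes matched (Elovl1, Elovl2, Elovl5, Elovl6 and Fads2). Only the unbroken stretch of these bases that lies outside annotated exons is shown. The stretch for Elovl6 is chr3:129532136-129532256, that for Elovl1 chr4:118427843-118428092 and that for Elovl5 chr9:77917115-77917363, all on the plus strand. Capitals mark motifs found on either strand, which were CCAAT (the CCAAT box), CACGTG (an E-box), GGGCGG (a GC box), CACCCCA (the centre of a sterol regulatory element) and AGGTCA (a nuclear receptor half-site).
Elovl6: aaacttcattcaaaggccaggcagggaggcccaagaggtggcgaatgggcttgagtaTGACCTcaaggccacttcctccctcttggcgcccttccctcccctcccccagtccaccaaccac
Elovl1: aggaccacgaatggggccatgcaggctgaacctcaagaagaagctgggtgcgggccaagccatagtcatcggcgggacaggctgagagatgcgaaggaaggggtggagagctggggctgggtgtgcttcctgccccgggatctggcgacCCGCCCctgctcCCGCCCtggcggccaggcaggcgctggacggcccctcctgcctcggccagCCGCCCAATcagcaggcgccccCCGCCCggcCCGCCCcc
Elovl5: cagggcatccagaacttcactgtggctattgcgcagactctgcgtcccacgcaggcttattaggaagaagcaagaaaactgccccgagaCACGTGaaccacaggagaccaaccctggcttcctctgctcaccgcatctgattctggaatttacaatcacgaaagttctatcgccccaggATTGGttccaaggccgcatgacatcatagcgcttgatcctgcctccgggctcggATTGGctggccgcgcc
The Elovl6 stretch held 1 AGGTCA on the minus strand, 193 bases before the start site, and none of the others. The Elovl1 stretch held 5 GC boxes on the minus strand and 1 CCAAT 35 bases before the start, which overlaps the GC box next to it. In the Elovl5 stretch there was 1 CACGTG 161 bases before the start site and CCAAT on the minus strand at 71 and at 17 bases. In the 250 bases before the start sites of 32851 RefSeq promoters, 33.8% held CCAAT, 6.02% CACGTG, 32.7% GGGCGG, 6.68% CACCCCA and 14% AGGTCA. At another start site of Elovl1 further downstream, CACCCCA was found 70 bases before it, together with 2 GC boxes and 1 AGGTCA. Of the other matched genes, Elovl2 had 5 GC boxes and Fads2 1. These are matches of letters and carry no information on which factor binds there.

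The genes lie on 5 chromosomes of GRCm38, with 5 of the 9 on chromosome 19. These 5 are Scd1 (ENSMUSG00000037071, chr19:44394455-44407879, minus strand), Scd2 (ENSMUSG00000025203, chr19:44293674-44306864, plus), Fads1 (ENSMUSG00000010663, chr19:10182888-10196877, plus), Fads2 (ENSMUSG00000024665, chr19:10062765-10101746, minus) and Elovl3 (ENSMUSG00000038754, chr19:46131897-46135694, plus). Elovl6 (ENSMUSG00000041220) spans chr3:129532355-129638495, Elovl1 (ENSMUSG00000006390) chr4:118428093-118432953 and Elovl5 (ENSMUSG00000032349) chr9:77917364-77984519, all on the plus strand. Elovl2 (ENSMUSG00000021364) spans chr13:41182381-41220405 on the minus strand.

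Levels per length differed widely across the 9 genes. On the TPM scale, which corrects for transcript length, Scd1 was by far the most abundant, with a mean over the 32 libraries of 5406 TPM and a range from 583 to 13712. It ranked between 9 and 177 among all genes in a library. The genes of the polyunsaturated pathway followed at similar levels, with means of 536 TPM for Elovl5 (range 185 to 901), 314 for Fads2 (147 to 574), 283 for Elovl2 (186 to 478.5) and 246 for Fads1 (48.35 to 509). The ranges of these 4 neighbours overlapped, and the lowest liver for Scd1 lay within the range of Elovl5. Elovl3 had group means from 177 to 285 TPM in males but from 1.23 to 2.81 in females. Elovl6 averaged 100.6 TPM with group means between 28.2 and 196, and Elovl1 averaged 36.6 TPM with group means between 24.4 and 43.5. Scd2, the desaturase of brain and other tissues, was the least abundant of the 9 genes with a mean of 4.29 TPM (range 1.302 to 23.3).

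**Figure D1:**
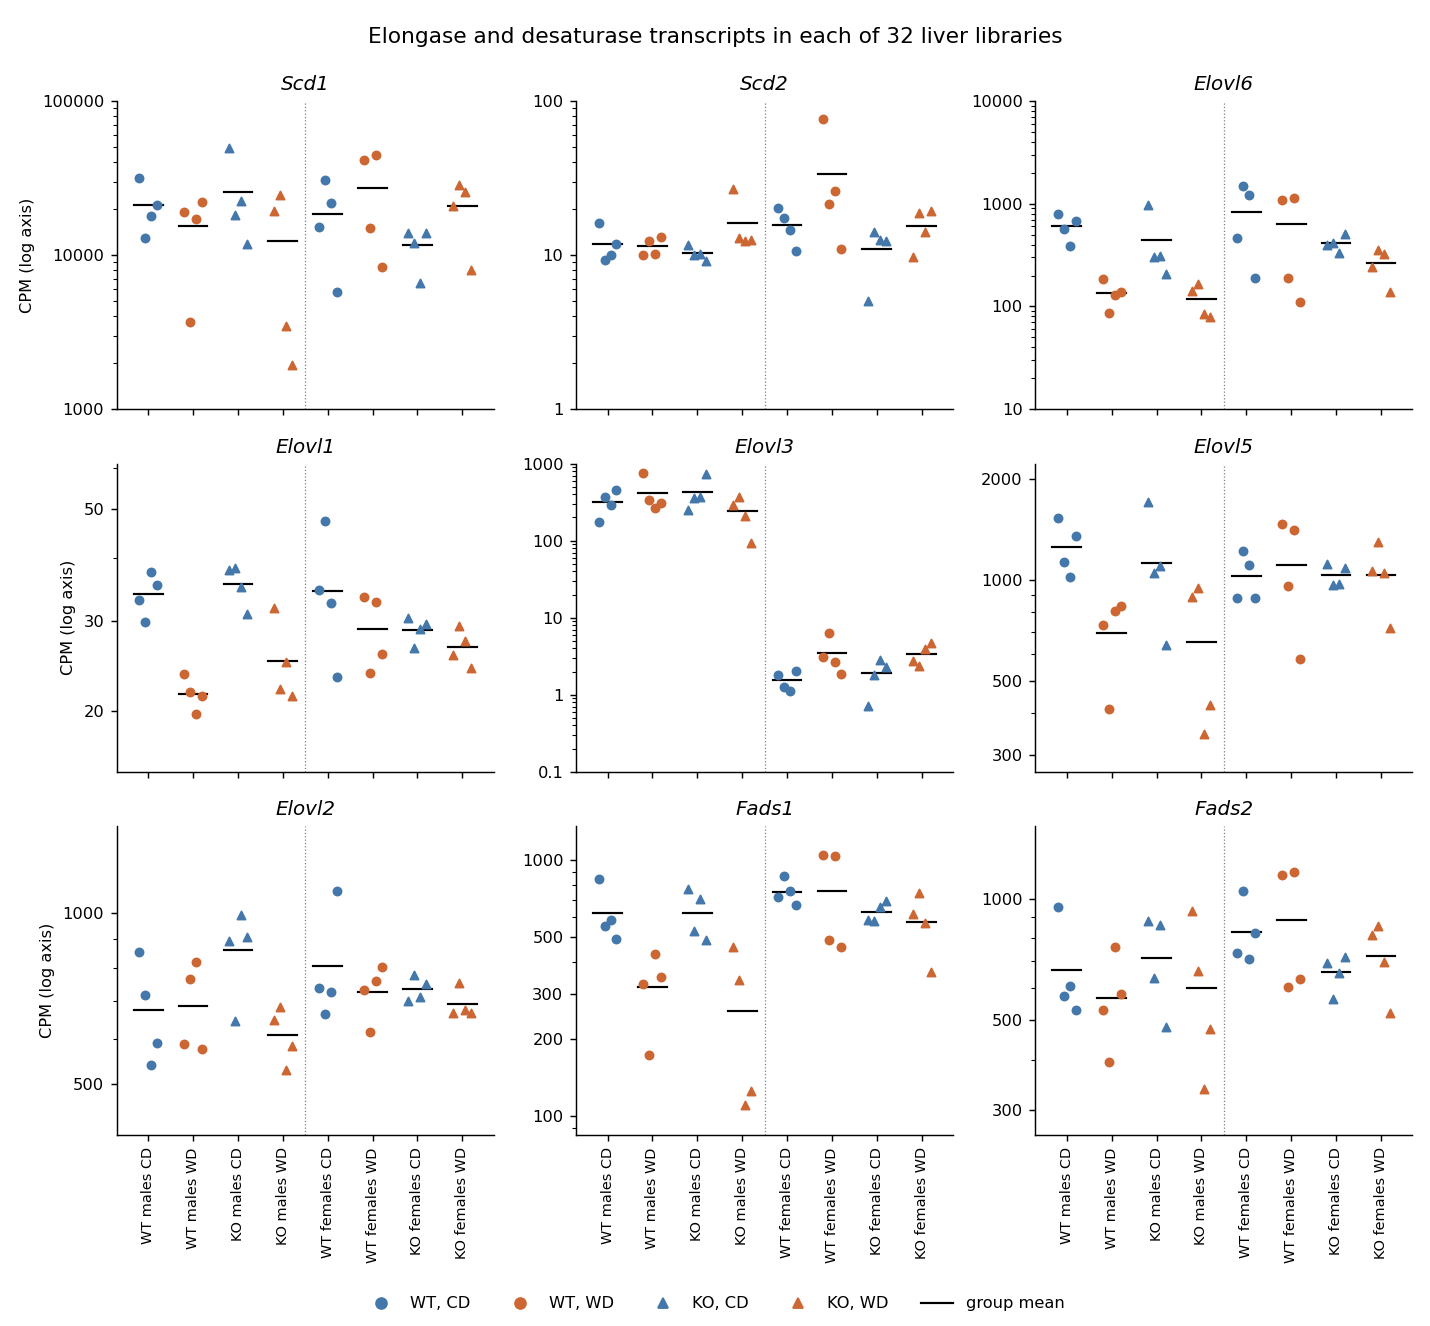
CPM of each of the 9 genes in each liver library (log axis, 1 panel per gene), by group, with the group mean as a line. Elovl6 of males of either genotype and Elovl1 of WT males sit lower on the WD than on the CD without overlap. Elovl3 is at most 6.30 CPM in females and at least 94.2 in males, and Scd1 covers up to 12.6-fold within a group.

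Transcripts of Elovl6, Elovl1 and Elovl5 were lower on the WD in WT males, and none of the 9 genes was called higher. Elovl6, the elongase of palmitate, stood at 793, 561, 386 and 684 CPM in the 4 livers on the CD and at 184, 87.1, 129 and 138 CPM on the WD. The diets did not overlap, and every liver on the WD was well below the lowest on the CD. The mean was 606 ± 175 CPM (SD, n = 4) on the CD and 135 ± 39.55 on the WD, with a fitted fold of 4.46. Its log2 fold change was −2.16 (SE 0.28, adjusted p = 0.00414 by edgeR's quasi-likelihood test with Benjamini-Hochberg adjustment over all genes tested). Elovl1 had 33.1, 29.9, 37.4 and 35.3 CPM on the CD and 23.6, 21.7, 19.7 and 21.3 on the WD. The livers within a diet were close together, and the log2 fold change of −0.64 was measured with an SE of 0.10 (edgeR, adjusted p = 0.00287). Elovl5, the elongase that acts between FADS2 and FADS1, had 1523, 1133, 1018 and 1351 CPM on the CD against 734, 411, 807 and 833.5 on the WD. Its log2 fold change was −0.84 (SE 0.22, edgeR adjusted p = 0.0317). The calls for Elovl6 and Elovl1 held in every alternative fit and without any 1 of the 8 livers. The call for Elovl5 was lost with no filter on low counts (adjusted p = 0.0589), in a model of all 32 libraries (0.0751) and without replicate 1 or 4 of the CD or replicate 1 or 3 of the WD (0.0537 to 0.0839).

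Fads1 also had no overlap between the diets in WT males, with 848, 555, 588 and 494 CPM on the CD and 328, 174, 431 and 349.7 on the WD. Its log2 fold change of −0.94 (SE 0.28) missed the threshold of 0.05 (edgeR adjusted p = 0.0605), and it passed with DESeq2 (0.00142) and without replicate 2 of the WD (0.0305). Called genes were thus 3 of 9 in this comparison, all lower, where 6.78% of the 12235 genes tested were lower and 13.7% were called in either direction. Counted by overlap, 4 of the 9 genes were separated and lower on the WD, against 10.7% of all genes. The median log2 fold change of the 9 genes was −0.42 and that of all genes tested 0.01. Scd1 did not pass the test, with a log2 fold change of −0.42 (SE 0.55) and a 95% interval from −1.73 to 0.90. On the CD it ranged from 12981 to 31840 CPM and on the WD from 3687 to 22254, with replicate 2 of the WD far below the other 3 livers (17067 to 22254). Fads2, at −0.22 (interval −0.74 to 0.30), Elovl2, at 0.04 (−0.32 to 0.40), Elovl3, at 0.39 (−0.62 to 1.40), and Scd2, at −0.03 (−0.40 to 0.35), did not pass either.

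In KO males none of the 9 genes was called between the diets by edgeR (background 2.6% of 12407 genes). Of the 9, 8 had a log2 fold change below 0 and 5 had an unadjusted p under 0.05, as did 2162 of all genes tested. DESeq2 called 3 of the 9 (Elovl1, Elovl2 and Elovl6), where it called 805 of 12403 genes. When given offsets for transcript length it called 2 (Elovl2 and Elovl6), and 808 of 12397 genes. Elovl6 had 969.7, 303, 309 and 208 CPM on the CD and 140.1, 167, 84.25 and 79.1 on the WD. The diets were again separated, with a log2 fold change of −1.92 (SE 0.54, edgeR adjusted p = 0.123). Replicate 1 on the CD stood far above the other 3 livers, and without it the log2 fold change was −1.21 (adjusted p = 0.0801). Fads1 had 771, 529, 707 and 489 CPM on the CD and 460.0, 339.55, 110.2 and 125 on the WD, where it fell into a higher and a lower pair of livers (log2 fold change −1.26, SE 0.48, edgeR adjusted p = 0.227). Elovl1 overlapped between the diets only through replicate 1 of the WD, which had 31.9 CPM against 31.0 in the lowest liver on the CD. Its log2 fold change of −0.49 (SE 0.14, edgeR adjusted p = 0.0872) passed without that library (−0.63, 0.0157). Elovl2 overlapped between the diets, at 859 ± 148 CPM on the CD and 611 ± 68.1 on the WD (log2 fold change −0.48, SE 0.16, edgeR adjusted p = 0.148). Scd2 was separated in the other direction, from 9.15 to 11.6 CPM on the CD and from 12.3 to 26.9 on the WD (log2 fold change 0.67, SE 0.26, edgeR adjusted p = 0.212). Replicate 1 of the WD stood far above the others, and without it the log2 fold change was 0.30 (edgeR adjusted p = 0.276). By overlap, 2 genes were separated and lower and 1 was separated and higher, against 5.69% and 5.26% of all genes.

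Over both male genotypes 4 of the 9 genes fell on the WD. The mean diet effect in males, taken from a model of all 32 libraries, was −2.05 for Elovl6 (SE 0.45, edgeR adjusted p = 0.00298), −1.11 for Fads1 (0.25, 0.00339), −0.82 for Elovl5 (0.22, 0.0107) and −0.58 for Elovl1 (0.10, 0.000348), all as log2 fold changes. The background was 9.08% of 13539 genes for lower calls and 16.3% for calls in either direction, and the median log2 fold change of the 9 genes was −0.58 against 0.0008 for all genes tested. These 4 calls held in every alternative and without any 1 library. Scd1 had a mean effect of −0.74 with an interval from −1.76 to 0.27, which does not exclude a large decrease. The diet effect did not pass a test of difference between KO and WT males for any of the 9 genes (0.0591% of all genes did), nor between KO and WT females, where 0% of all genes did. In males 2 of the 9 genes had an unadjusted p under 0.05 in that test and in females 0, and DESeq2 called none. Of the 13539 genes tested, 1613 had such a p in males and 581 in females.

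**Figure D2:**
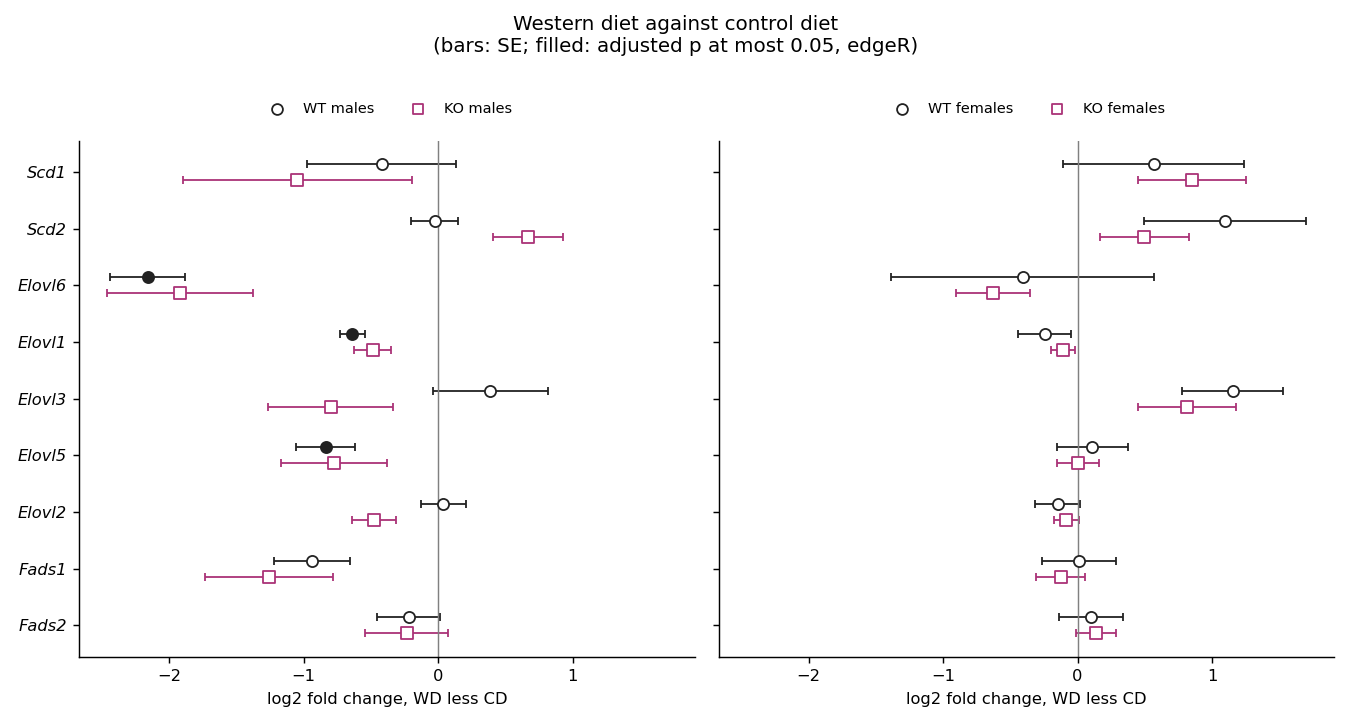
Log2 fold change of each gene on the WD against the CD with its SE, for males in the left panel and females in the right panel, WT as circles and KO as squares, filled where edgeR called the gene. Elovl6, Elovl1 and Elovl5 of WT males are filled on the lower side, at −2.16, −0.64 and −0.84, and no symbol of females is filled.

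Genes that supply or accompany these enzymes are given next, from lists drawn up by function, also with earlier results known. Of 10 genes that make malonyl-CoA and palmitate, 6 were lower on the WD in WT males, 2 in KO males and 9 in the mean effect of both, and none was higher. Of all genes tested, 6.78%, 0.967% and 9.08% were lower in these 3 comparisons. Their median log2 fold change was −1.91 in WT males and −1.63 in KO males, against 0.01 for all genes tested in each. Acss2, which makes acetyl-CoA from acetate, fell from 562 ± 149 to 102 ± 31.0 CPM in WT males (log2 fold change −2.44, SE 0.27, edgeR adjusted p = 0.00197). Acaca, the acetyl-CoA carboxylase that makes malonyl-CoA, fell by 1.73 on the log2 scale (SE 0.27, edgeR adjusted p = 0.00721). Me1, the malic enzyme that supplies NADPH, fell by 1.67 (0.26, 0.00689). Tecr, which carries out the last reduction of the elongation cycle, was the only called gene of 6 in that list, at −0.87 in WT males (SE 0.11, edgeR adjusted p = 0.000897) and −0.68 in KO males (0.15, 0.0409). Cyb5r3, the reductase that passes electrons to cytochrome b5 and so to the desaturases, was the only one of 5 tested electron carriers called in WT males, at −1.02 (0.13, 0.00144). The partner enzymes Hsd17b12, Hacd1, Hacd2, Hacd3 and Hacd4 were not called for diet in males.

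Peroxisomal genes of the retroconversion of long polyunsaturated chains moved the other way, with 6 of 9 higher in WT males, 5 in KO males and 7 in the mean effect, and none lower. Of all genes tested, 6.93%, 1.64% and 7.19% were higher. The median log2 fold change of this list was 0.60 in WT and 0.59 in KO males, against 0.01 for all genes tested in each. Acaa1b, a peroxisomal thiolase, rose from 327 ± 63.9 to 937 ± 318 CPM in WT males (log2 fold change 1.53, SE 0.25, edgeR adjusted p = 0.00716). Among 16 regulators of lipogenic genes, Pparg (1.60) and Ppara (0.85) were higher and Srebf2 (−0.95) and Scap (−0.60) lower in WT males, as log2 fold changes with edgeR adjusted p between 0.00079 and 0.00743. Srebf1, the gene of SREBP-1c, was not among them. Some listed adipocyte markers moved with the diet in males: 2 of the 5 tested, Cfd and Car3, were higher on the WD in WT males. In KO males 1 of 5 (Cfd) was called, and in the mean effect 3 of 8 (Cfd, Cidec and Lipe), all higher. Cfd, the gene of adipsin, had 0.938 ± 0.652 CPM on the CD and 17.1 ± 9.29 on the WD in WT males, and 0.0825 ± 0.116 and 52.6 ± 36.5 in KO males, with no overlap between the diets in either. The summed level of the 10 markers was 1330 to 2005 CPM on the CD and 2245 to 3406 on the WD in WT males, and 1279 to 2729 and 1103 to 2585 in KO males. In WT males most of that sum was Car3, at 1620 ± 285 CPM on the CD and 2951 ± 500 on the WD. Adipoq, which defines adipocytes, was at or below 0.6645 CPM on the CD. On the WD it was at 0 in all WT males but 1, which had 3.305 CPM, and at or below 0.1546 in KO males. The hepatocyte markers summed to 82608 to 96996 CPM on the CD and 76451 to 87126 on the WD in WT males, and to 82447 to 106667 and 57072 to 88499 in KO males. The part of these markers in the result was not tested.

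In females no gene of the 9 was called for diet. In WT females, where 0.0785% of 12737 genes were called, edgeR and DESeq2 called none and 1 gene (Elovl3) had an unadjusted p under 0.05. Such a p was found for 1078 of all genes tested. In KO females, with a background of 0.125%, both tools called none and 2 genes (Elovl3 and Elovl6) had an unadjusted p under 0.05. Among all 12840 genes tested, 1268 had one. None of the 9 genes was separated between the diets in either genotype, where 5.02% and 5.83% of all genes were. Elovl6 had 458, 1494, 1207 and 187.5 CPM in WT females on the CD and 1079.5, 188, 1138 and 111 on the WD. Both diets thus held livers at the high and at the low end, and the interval of the log2 fold change ran from −2.76 to 1.94. In KO females Elovl6 was 334 to 506 CPM on the CD and 137 to 358 on the WD, with a log2 fold change of −0.63 (SE 0.28, edgeR adjusted p = 0.503). Elovl5, Fads1 and Fads2 differed by at most 0.14 on the log2 scale in either genotype of females. Their widest interval was that of Fads1 in WT females, from −0.60 to 0.62. Elovl3, which had only 9 to 103 counts per female library, stood at 1.56 ± 0.437 CPM on the CD and 3.49 ± 1.94 on the WD in WT females (log2 fold change 1.15, SE 0.38, edgeR adjusted p = 0.45). For the mean diet effect in females edgeR and DESeq2 called none of the 9 genes (background 2.56%), and 2 (Elovl3 and Scd2) had an unadjusted p under 0.05. Of all 13539 genes tested, 2181 had one. Without replicate 4 of WT females on the WD, Scd2 was called higher (0.94, adjusted p = 0.0361), where the value with all libraries was 0.79 (SE 0.29, edgeR adjusted p = 0.151). Of the 14 acinar markers, 11 were lower on the WD in the same fit (1.61% of all genes were), and leaving out the 4 libraries with acinar transcripts gave no call for diet among the 9 genes. None of the 10 genes that supply malonyl-CoA and palmitate was called in females (median −0.64 in the mean effect, against −0.01 for all genes tested).

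The difference between the sexes in the diet effect was tested directly and called none of the 9 genes, where 0.244% of all genes were called, and DESeq2 called none either. Its sign was the same for all 9, with the WD effect higher in females than in males. Unadjusted p-values under 0.05 were found for 6 of the 9, and for 1591 of the 13539 genes tested. The largest differences on the log2 scale were 1.53 for Elovl6 (95% interval 0.25 to 2.81, edgeR adjusted p = 0.335), 1.45 for Scd1 (0.02 to 2.88, 0.421) and 1.19 for Elovl3 (0.18 to 2.20, 0.339). Fads1 differed by 1.05 (0.32 to 1.78, 0.249), Elovl5 by 0.87 (0.24 to 1.502, 0.264) and Elovl1 by 0.40 (0.10 to 0.70, 0.285). The calls in males and the absence of calls in females are therefore not shown to differ. Of 8 adipocyte markers, Cfd (−8.45, SE 1.33, edgeR adjusted p = 0.00335) and Lipe (−0.74, 0.15, 0.0185) were called in this test, with a lower WD effect in females, and their part in it was not tested.

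Between KO and WT livers edgeR called none of the 9 genes in any of the 4 pairs of groups. The background was also low, at 0.00814% of genes on the CD and 0.0162% on the WD for males, and at 0.0314% and 0.0156% for females. DESeq2 called none of the 9 in any pair, and an unadjusted p under 0.05 was found for 1 gene, Fads2 in females on the CD (828.96 ± 154 CPM in WT and 658 ± 67.6 in KO, log2 fold change −0.34, SE 0.15, edgeR adjusted p = 0.724). Among all genes such a p was found for 1197 and 1194 in males on the CD and WD, and for 876 and 981 in females. No gene of the 9 was separated by genotype in any pair. Of all genes, 4.83% and 5.07% were separated in males on the CD and WD, and 4.41% and 4.34% in females. The intervals of the difference were narrow for some genes and wide for others. For Elovl2 on the WD they ran from −0.48 to 0.17 in males and from −0.30 to 0.15 in females. For Elovl1 in males on the CD the interval was −0.15 to 0.30. For Scd1 in males on the WD it was −2.45 to 1.79, which leaves room for a large change either way. Elovl6 in females had 188 to 1494 CPM in WT and 334 to 506 in KO livers on the CD, and 111 to 1138 against 137 to 358 on the WD. Its log2 fold changes were −1.02 (interval −2.41 to 0.37) and −1.25 (−3.27 to 0.77), with edgeR adjusted p of 0.78 and 0.798. In the mean genotype effect over the 4 pairs edgeR and DESeq2 called none of the 9 (background 0.0886%). All 9 had a log2 fold change below 0, with a median of −0.11 against 0.0022 for all genes tested, and Elovl6 at −0.72 (SE 0.31, interval −1.36 to −0.08, edgeR adjusted p = 0.504) was the only one with an unadjusted p under 0.05. Of all 13539 genes tested, 1231 had one.

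**Figure D3:**
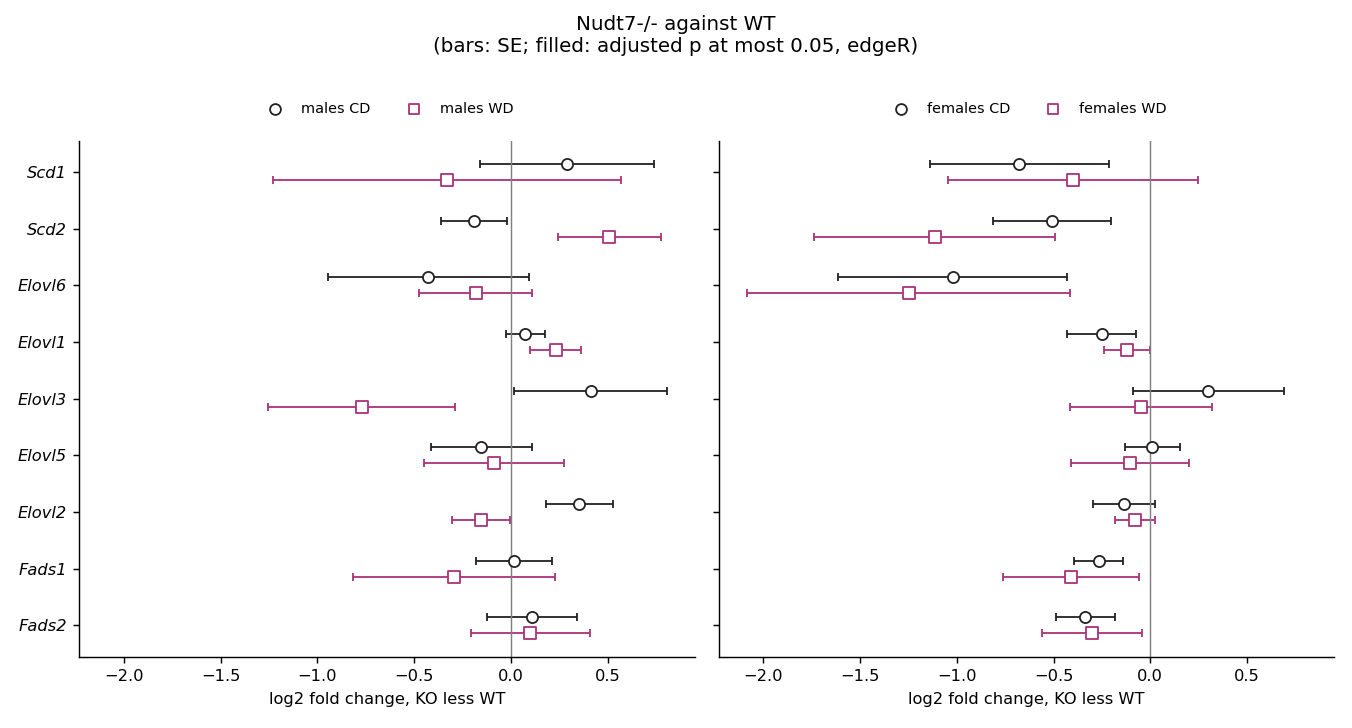
Log2 fold change of each gene in KO against WT mice with its SE, for males (left) and females (right), CD as circles and WD as squares. No symbol is filled, so edgeR called no gene, and the widest bar is that of Scd1 in males on the WD (SE 0.90).

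Elovl3 separated the sexes in every genotype and diet. In WT mice on the CD the 4 males had 172, 369, 289 and 456 CPM and the 4 females 1.81, 1.25, 1.13 and 2.04. In KO mice on the CD males had 247, 362, 364 and 731 CPM and females 0.7145, 1.785, 2.855 and 2.31. Every female library was far below every male library on either diet. The shares of all genes separated and lower in females were 5.41% in WT and 7.48% in KO livers on the CD, and 9.47% and 8.7% on the WD. The counts behind the female values were 9 to 103 per library. The log2 fold changes in females against males were −7.66 (SE 0.37, edgeR adjusted p = 1.46e-06) and −7.76 (0.52, 0.000102) on the CD. On the WD the 4 WT males had 752, 339, 266 and 312 CPM and the 4 WT females 3.09, 6.30, 2.68 and 1.88. KO males on the WD had 294, 369.95, 211 and 94.2 CPM and KO females 2.74, 2.345, 3.91 and 4.66. Here the log2 fold changes were −6.87 (0.56, 0.000523) and −6.16 (0.53, 0.000809). The mean effect over the 4 pairs of groups was −7.12 (SE 0.28, edgeR adjusted p = 1.17e-16), a 139-fold lower level in females. These calls held in every alternative and without any 1 library. Elovl3 overlaps Pitx3 on the opposite strand, and reads of both strands cannot be told apart unless strand was used.

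Other members differed less between the sexes. On the CD, Elovl3 was the only gene of the 9 called. Among WT mice 2.24% of all genes were called and 1.14% were lower, and among KO mice these shares were 6.66% and 3.22%. On the WD, Elovl3 was the only gene called in KO mice, against 9.66% of all genes called and 5.44% lower. In WT mice on the WD, 9.64% of genes were called, with 4.82% lower and 4.81% higher, and Elovl1 was called beside Elovl3, with 21.6 ± 1.59 CPM in males and 29.0 ± 4.90 in females (log2 fold change 0.44, SE 0.12, edgeR adjusted p = 0.0485). That call was lost in 4 alternative fits (0.0522 to 0.072) and without 6 of the 8 libraries, one at a time (all 4 males and replicates 1 and 3 of the females, 0.0731 to 0.148). In WT mice on the WD, Fads1 was separated as well, at 321 ± 107 CPM in males and 759.6 ± 329 in females (1.26, SE 0.38, edgeR adjusted p = 0.0796). Without replicate 4 of the females, 1 of the 4 libraries with acinar transcripts, Fads1 (1.43, adjusted p = 0.0484) and Elovl6 (2.58, 0.0486) were called higher in females, so that 4 of the 9 genes were called in place of 2. Calls among all genes rose too, to 1789 of 12323 genes (900 higher and 889 lower) from 1207 of 12524. The 2 genes separated and higher in females compare with 7.95% of all genes. In KO mice on the WD, Elovl6 had a log2 fold change of 1.17 (SE 0.36, edgeR adjusted p = 0.0876) and was called without replicate 4 of the females (1.39, 0.0199). In KO mice on the CD, Elovl1 was separated and lower in females, at −0.30 (SE 0.10, edgeR adjusted p = 0.103), so that 2 genes were separated and lower there, Elovl3 included, against the 7.48% of all genes given above. Scd1 was at −1.14 in that comparison (SE 0.43, edgeR adjusted p = 0.166).

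In the mean sex effect over all 4 pairs of groups, Fads1 was higher in females by 0.67 on the log2 scale (SE 0.18, edgeR adjusted p = 0.00508) and Elovl6 by 0.94 (0.31, 0.0242), where 15.9% of genes were higher, 15.6% lower and 31.6% called in all. Both calls held in every alternative and without any 1 library. The log2 fold changes of Fads1 were 1.26 (WT) and 1.14 (KO) on the WD, and 0.29 and 0.01 on the CD. For Elovl6 these were 2.24 and 1.17 on the WD and 0.47 and −0.12 on the CD. The test of that difference is the one between the diet effects of the sexes given above, which no gene of the 9 passed. Scd2 reached 0.50 (SE 0.21, edgeR adjusted p = 0.0643) and was called without the libraries with acinar transcripts (0.0296), with DESeq2 (0.0293) and without any 1 of 5 libraries (replicate 1 of KO males on the WD, of KO females on the CD and of KO females on the WD, and replicates 2 and 4 of WT females on the WD, 0.0168 to 0.0498). Fads2 was called only without replicate 1 of KO males on the WD (0.0389). Elovl1 (0.06, interval −0.09 to 0.21) and Elovl2 (0.07, −0.09 to 0.23) had narrow intervals around small differences, and Scd1 (0.06, −0.65 to 0.77) a wide one. Of the partner enzymes, Hsd17b12, the reductase that follows the elongase, was lower in females by 0.57 (SE 0.06, edgeR adjusted p = 2.93e-09), while Hacd1 and Tecr were higher by 0.38 and 0.30 (edgeR adjusted p = 0.00199 and 0.0298). In the same fit 4 of 9 macrophage markers and 2 of 14 acinar markers were higher in females and 1 of 8 adipocyte markers tested (Car3) was lower. Stellate (Dcn, Des), endothelial (Clec4g, Stab2) and cholangiocyte (Epcam) markers were also called higher. Of the lymphocyte markers, Nkg7 and Cd79a were higher and Cd4 lower. Hepatocyte markers called included Serpina1c (−0.82), Apob (−0.44) and Apoa1 (−0.31), lower, and Alb (0.33), higher, as log2 fold changes. The part of these markers in the result was not tested.

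**Figure D4:**
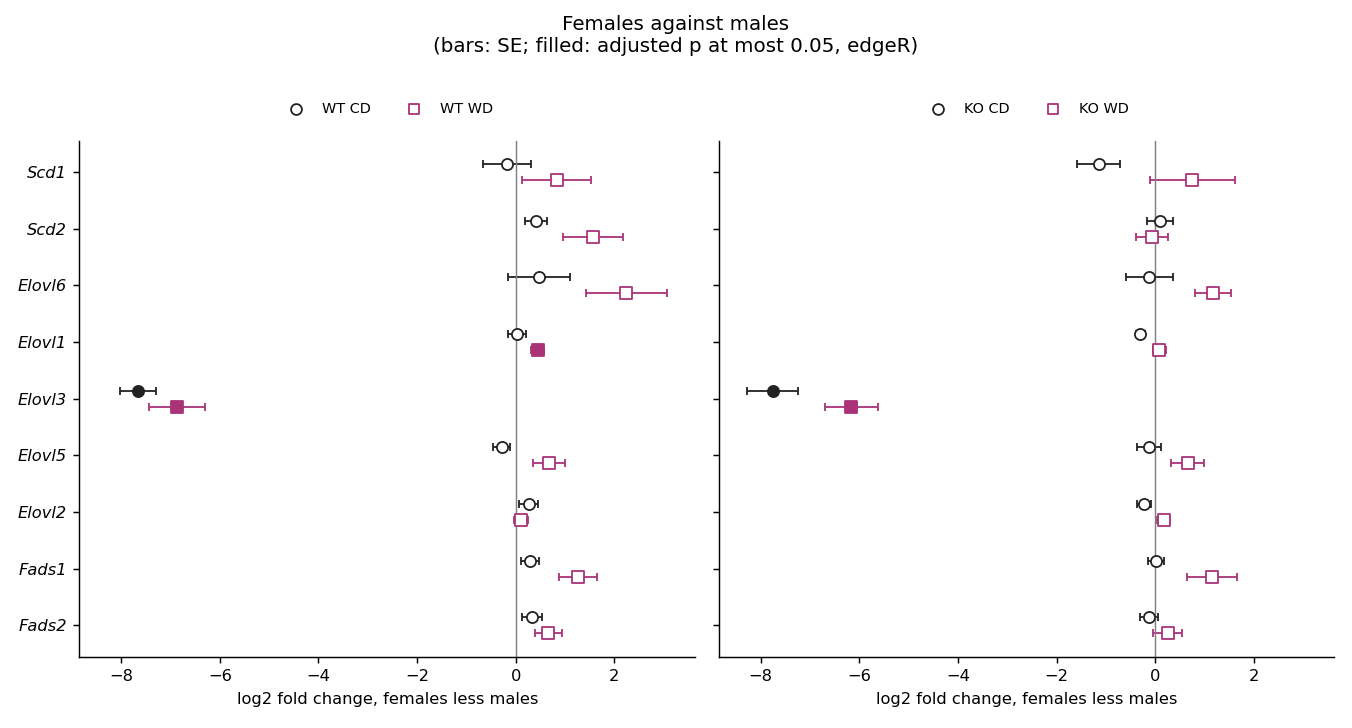
Log2 fold change of each gene in females against males with its SE, for WT (left) and KO mice (right), CD as circles and WD as squares, filled where edgeR called the gene. Elovl3 is filled in all 4 comparisons between −6.16 and −7.76, and the only other filled symbol is Elovl1 in WT mice on the WD at 0.44.

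Livers of the same group differed widely in some of these genes and little in others. The SD of log2 CPM within a group, averaged over the 8 groups, was 0.997 for Scd1, 0.80 for Elovl6 and 0.66 for Elovl3, but 0.20 for Elovl2 and 0.19 for Elovl1. Scd1 in KO males on the WD had 19305 and 24395 CPM in replicates 1 and 2 and 3451 and 1943 in replicates 3 and 4. In WT females on the WD it had 41427, 15011, 44339 and 8307 CPM. Replicates 1 and 3 of that group were also the highest for Elovl6, Elovl5, Fads1 and Fads2, and replicate 4, with acinar transcripts, was the lowest for Scd1, Elovl6, Elovl5 and Fads1. On the CD, WT females with acinar transcripts stood at either end, with the highest Elovl6 of their group in replicate 2 (1494 CPM) and the lowest in replicate 4 (187.5).

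The deviations of single livers from their group mean went together for most of the 9 genes. Over 32 libraries, which share groups, depth and normalization, Pearson's r of these deviations in log2 CPM was 0.925 for Fads1 with Fads2, 0.912 for Elovl5 with Scd1, 0.885 for Elovl5 with Fads1, 0.872 for Scd1 with Fads1 and 0.802 for Elovl6 with Scd1. Fads1 and Fads2 are neighbours on chromosome 19 in opposite orientation. Scd1 and Scd2, also close to each other there, had an r of 0.384. Elovl2 stood apart, with r between −0.419 (Elovl1) and 0.335 (Fads2), and Elovl3 with r between −0.247 (Fads2) and 0.186 (Scd2). Lipogenic genes outside the group of 9, some of them named after their values were seen, went with Elovl6 and Scd1: r was 0.973 for Elovl6 with Me1, 0.968 with Acaca, 0.939 with Acly and 0.911 with Fasn, and 0.885 for Scd1 with Thrsp. Cfd went the other way, with r of −0.584 for Scd1 and −0.571 for Elovl6, and Pck1, a gene of gluconeogenesis that rises in fasting, had an r of −0.679 with Elovl6. Cfd was near 0 in many libraries, with a group mean as low as 0.0825 CPM in KO males on the CD, so its r is uncertain. All these values describe the livers, and no test was made of them.

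**Figure D5:**
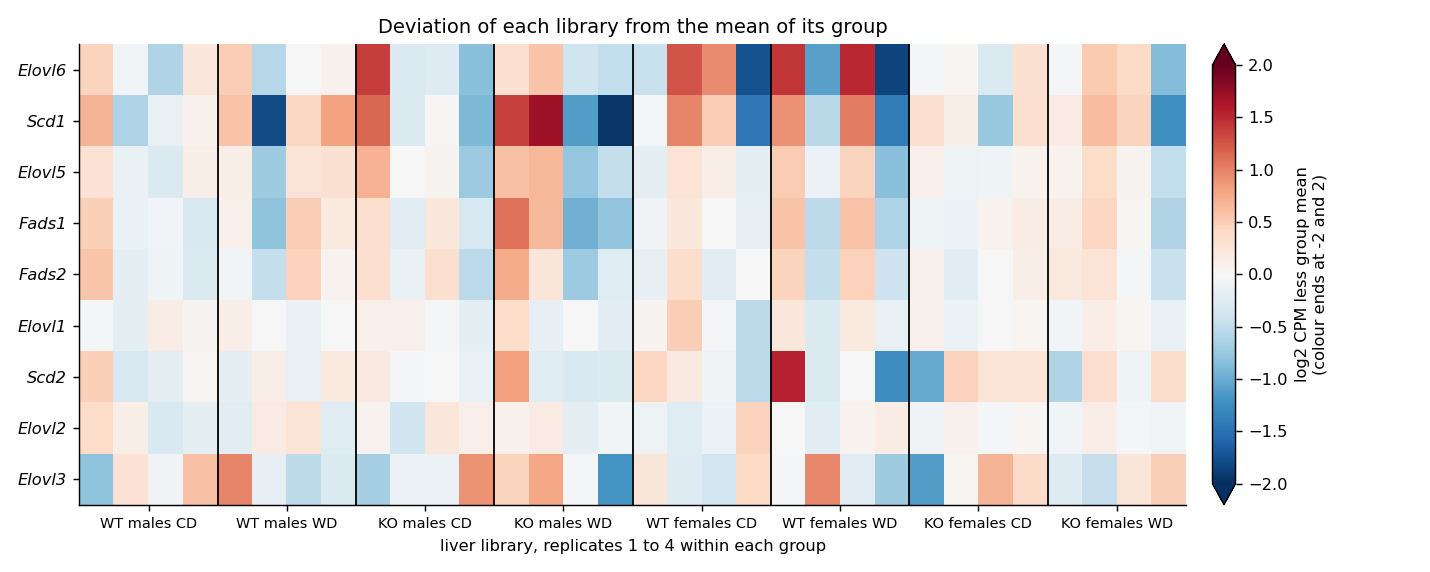
Deviation of log2 CPM of each gene (rows) from the mean of its group in each library (columns, replicates 1 to 4 within each group), red above and blue below the mean. The upper 5 rows (Elovl6, Scd1, Elovl5, Fads1 and Fads2) mostly share their colours within columns, as in WT females on the WD, where replicates 1 and 3 are red and replicates 2 and 4 blue.

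The genes whose log2 CPM followed each of the 9 most closely over the 32 libraries, group differences included, were as follows. Elovl6 was followed by Me1 (r = 0.972), Acaca (0.971) and Acat2 (0.942). For Scd1 these were Elovl5 (0.854), Dbi (0.796) and Adipor2 (0.794), and for Elovl5 they were Fads1 (0.886), Acacb (0.884) and Fam213a (0.873). Fads1 was near to Dntt (0.937) and Ugt1a5 (0.906), and Fads2 to Dntt (0.827), Fads1 (0.826) and Elovl5 (0.775). The genes nearest to Elovl3 were Eif2s3y (0.983), C6 (0.981) and Ddx3y (0.979), of which the first and last lie on the Y chromosome. For Elovl1 they were Ccdc69 (0.862), Cyb5r3 (0.860) and Calm3 (0.838). Scd2 was closest to Cx3cr1 (0.767), Mki67 (0.755) and Bicc1 (0.745), genes of immune cells, dividing cells and ducts, and Elovl2 had only weak neighbours in Tial1 (0.658), Smc3 (0.628) and Rfx3 (0.617).

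Of 8 further elongases and desaturases, Elovl4, Scd4 and Degs2 were too low to be tested in any comparison, and Elovl7 in any pair of groups. Elovl4 was at 0 in every library of KO males on the CD and WT females on the WD. Fads6 had group means between 134 and 177 CPM, and Degs1, which makes the double bond of ceramide, had group means between 67.4 and 76.9 CPM. For diet in males, the only one called was Scd3, lower in the mean effect (log2 fold change −1.13, SE 0.38, edgeR adjusted p = 0.0429). It was a low gene, with group means between 0.27 and 1.21 CPM. Between the sexes Scd3 (−0.995, SE 0.29, edgeR adjusted p = 0.00904) and Fads6 (−0.25, 0.06, 0.000867) were lower and Fads3 (0.32, 0.11, 0.0313) higher in females in the mean effect. None of them was called for genotype.

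Transcripts were assigned with some ambiguity in 3 of the 9 genes. Of the stretches of 50 bases in their annotated transcripts, 4.56% of those of Scd1 and 3.97% of those of Scd2 also occur in the other Scd genes or in AC123853.3, so that the level of Scd2, which is low beside Scd1, is uncertain. For Elovl6 3.98% are shared with transcripts of other genes. For Elovl1 and Fads2 the share was 0.139% and 0.152%, and for Elovl2, Elovl3, Elovl5 and Fads1 it was 0. Elovl1 and Elovl6 also overlap a gene on the opposite strand (Cdc20 and Gm35986). A single transcript carried at least 98.1% of the TPM of Scd1, Elovl5 and Fads2 in each group mean, and at least 94.6% for Elovl2. For Elovl6 the main transcript carried 83.9 to 91.5% and for Fads1 68.9 to 80.65%. Elovl3 was split between Elovl3-201 (32.5 to 55.5%) and Elovl3-202 (44.5 to 67.5%), and the main transcript of Elovl1, Elovl1-207, carried 43.55 to 51.6%. In males Elovl3-201 carried 32.5 to 39.4%. The values above that came from females, whose counts were low, and in KO females on the WD single libraries ran from 0 to 100%.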

How the data were processed

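Liver poly(A) RNA was sequenced as 50-base paired-end reads. The deposited values are estimated counts and TPM per transcript, made by the authors with Salmon 1.3.0 against GRCm38 and Ensembl transcripts. The transcript names, lengths and effective lengths deposited beside them were used for the length offsets. The authors tested with DESeq2 1.28.1, and none of their test results were used.

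Estimated counts were summed per gene with GENCODE names (115973 of 117135 transcripts matched, with 0.315 to 0.424% of a library's counts left out) and rounded. Each pair of groups was fitted with edgeR 4.0.16 (TMM, quasi-likelihood F test, limma 3.58.1, R 4.3.3) on genes with at least 10 counts in no fewer libraries than 1 group holds. A model of all 32 libraries gave mean effects and differences between effects. Adjusted p-values (Benjamini-Hochberg over all genes tested, threshold 0.05) decided calls. DESeq2 1.42.0, other scalings, filters, length corrections, a replicate block and the omission of each library were alternatives. The fits were tested on simulated data. Salmon's assignment of reads among similar transcripts, and depth, limit low genes such as Elovl3 in females. Values measure the spread between mice of a group.

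The members and gene lists were chosen with earlier results of these data known. Named genes were the 9 members, the called genes of smallest p in each list (at most 4 a comparison), and for each member the 3 genes of highest correlation. Items withheld from this text are not reported here.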

Additional observations from a re-analysis of the deposited data

Results flagged for a closer look

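In 72 sets of 4 livers, 1 for each gene and group, the liver at either end was compared with the others by the gap to its neighbour over the whole range, with a critical value of 0.829. Chance flags about 1 in 20 such sets, which is close to the 5 of 72 found here. Elovl6 in replicate 1 of KO males on the CD stood at 969.7 CPM against 208 to 309 in the other 3 livers. Elovl3 in replicate 1 of WT males on the WD stood at 752 CPM against 266 to 339. Scd2 in replicate 1 of KO males on the WD stood at 26.9 CPM against 12.3 to 12.8. Elovl2 stood at 1092 CPM in replicate 4 of WT females on the CD, a library with acinar transcripts, against 665 to 737, and at 753 CPM in replicate 2 of KO females on the WD against 667 to 675. The cause of these values was not tested.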

How the results depend on the processing

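No call of the 9 genes changed direction under any alternative. The calls of Elovl3 between the sexes, of Elovl6 and Elovl1 for diet in WT males, of the 4 genes in the mean diet effect in males and of Fads1 and Elovl6 in the mean sex effect held throughout. Apart from fits that leave out a single library, the number of the 9 genes called moved by more than 1.5 times in 3 comparisons and by less in 2. For diet in KO males, where the count was 0, it was 2 in the model of all 32 libraries, 1 with no filter, 3 with DESeq2 and 2 with DESeq2 and length offsets. Among all genes 323 were called in the main fit, and 747, 427, 805 and 808 in these fits in turn. For sex in KO mice on the WD, where it was 1, it was 2 in the model of all libraries and with both forms of DESeq2. For sex in WT mice on the WD, where it was 2, it was 4 in the model of all libraries, with both forms of DESeq2 and without the libraries with acinar transcripts, and 1 with RLE size factors, with length offsets in edgeR and with the length trend removed. Among all genes 1207 were called in the main fit. In the fits with 4 called members these were 1396, 1659, 1338 and 1789 in turn, and in those with 1 they were 1206, 805 and 1303. The smaller moves were for diet in WT males, from 3 to 2 in the model of all libraries and with no filter and to 4 with both forms of DESeq2, and for the mean sex effect, from 3 to 4 with both forms of DESeq2 and without the libraries with acinar transcripts. The cause of these moves was not tested.

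Without 1 library at a time the count ran from 2 to 4 for diet in WT males, and for diet in KO males from 0 to 1 (1 without replicate 1 of KO males on the WD). It ran from 1 to 4 for sex in WT mice on the WD, from 1 to 2 in KO mice on the WD (2 without replicate 4 of KO females) and from 3 to 5 for the mean sex effect (5 without replicate 1 of KO males on the WD). It ran from 0 to 1 for the mean diet effect in females, was 4 to 4 for that in males, 1 to 1 for sex on the CD in either genotype, and 0 to 0 in all other comparisons.

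The labels do not say whether mice of the same replicate number were paired, and a pairing was not tested. In no comparison did more than 2 of the 4 same-numbered pairs have a correlation of deviations over 0.1. Their mean ran from −0.132 (sex in WT mice on the CD, other pairs 0.0444) to 0.141 (sex in WT mice on the WD, other pairs −0.0463). With the number as a block, the count was 1 for diet in KO males (Elovl6), 3 for sex in KO mice on the WD and 4 for sex in WT mice on the WD. The spread between mice limits what the tests can call, as the interval of the mean diet effect on Scd1 in males shows (−1.76 to 0.27 on the log2 scale).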
